A study of Mus musculus with 22 samples.

Results

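The lipin genes Lpin1 and Lpin2 and 8 genes of fatty acid synthesis (Fasn, Acaca, Acly, Scd1, Srebf1, Elovl6, Me1 and Thrsp) were followed in mouse liver by their gene symbols. Of these 10 genes, 7 had a row among the 13392 genes of the series, and Acaca, Acly and Scd1 were not analysed here. The set was selected with results of the same arrays already known: Lpin1 was chosen because it was higher in nintedanib-treated than in vehicle-treated mice, so its values in that contrast, and against controls on the same nintedanib arrays, are given as a description with no p. The series profiled frozen liver tissue away from tumours, from 22 male mice of the C57BL/6J strain, each on its own Affymetrix HT MG-430 array, as log2 values from the robust multiarray average (RMA). The 10 nintedanib mice had received 1 injection of the carcinogen N-nitrosodiethylamine (DEN) and then carbon tetrachloride (CCl4) every week, which causes fibrosis and hepatocellular carcinoma, and were given the growth factor receptor kinase inhibitor nintedanib at 50 mg/kg for 5 weeks. The 9 vehicle mice carried the same DEN and CCl4 damage and were given vehicle for 5 weeks. The 3 control mice had healthy liver: they received saline in place of DEN and oil in place of CCl4, and their titles name vehicle too. How long the controls were dosed was not given in the sources used here. Each title is a separate animal, and its number is used as the name of the mouse.

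Lipins are phosphatidate phosphatases that make diacylglycerol, the step before triglyceride and phospholipid formation. Lipin 1 also acts in the hepatocyte nucleus as a partner of the coactivator encoded by Ppargc1a, and its gene in mouse liver is known to rise in fasting and with glucocorticoids. Fatty acid synthesis is the opposite, fed-state programme: citrate is cleaved to acetyl-CoA (Acly), carboxylated (Acaca), built into palmitate (Fasn), elongated (Elovl6) and desaturated (Scd1), with NADPH from malic enzyme (Me1). Srebf1, a transcription factor gene responsive to insulin and to the liver X receptors, drives most of these genes, and Thrsp (Spot 14) encodes a small protein that promotes lipogenesis and responds to thyroid hormone and carbohydrate. Several of these genes also follow the day and night cycle in liver.

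The promoter windows of 4 genes are shown because the values below turn on them: Lpin1 and Lpin2, the pair that was higher in nintedanib mice, Thrsp, which differed most between runs of vehicle mice, and Fasn, whose groups overlapped. Each runs from 250 bases before the annotated start, in the gene's own direction, and comes from RefSeq on GRCm38.p6. The table held 12 windows for the 7 genes, some genes having several starts. Capitals mark matches to the searched motifs, read on both strands: CACGTG (E-box, bound by clock and USF factors), TTANGTAA (D-box), TCACNCCAC (sterol regulatory element), TGACGTCA (cAMP response element), CCAAT (the site of nuclear factor Y), TATAAA (the core promoter box), the glucocorticoid response element and the LXR element.
Lpin1 (chr12:16610917-16611216, minus strand): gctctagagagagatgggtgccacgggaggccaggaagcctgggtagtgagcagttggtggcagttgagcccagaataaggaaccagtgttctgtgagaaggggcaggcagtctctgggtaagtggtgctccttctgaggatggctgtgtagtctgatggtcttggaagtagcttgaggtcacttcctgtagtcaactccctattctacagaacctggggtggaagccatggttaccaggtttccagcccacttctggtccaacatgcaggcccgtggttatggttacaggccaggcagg
Lpin2, outermost start (chr17:71183282-71183581, plus strand): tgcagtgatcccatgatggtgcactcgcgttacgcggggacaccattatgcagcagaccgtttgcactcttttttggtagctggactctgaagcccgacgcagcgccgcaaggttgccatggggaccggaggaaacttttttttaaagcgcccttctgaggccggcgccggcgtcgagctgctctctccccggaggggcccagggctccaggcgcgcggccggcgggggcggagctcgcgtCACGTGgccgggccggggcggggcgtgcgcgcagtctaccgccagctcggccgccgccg
Thrsp (chr7:97417501-97417800, minus strand): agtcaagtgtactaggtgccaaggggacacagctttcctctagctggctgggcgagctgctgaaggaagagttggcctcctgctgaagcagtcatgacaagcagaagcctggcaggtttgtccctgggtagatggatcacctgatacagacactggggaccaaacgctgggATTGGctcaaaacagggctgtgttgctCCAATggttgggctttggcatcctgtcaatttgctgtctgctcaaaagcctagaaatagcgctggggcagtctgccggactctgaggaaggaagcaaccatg
Fasn (chr11:120824498-120824797, minus strand): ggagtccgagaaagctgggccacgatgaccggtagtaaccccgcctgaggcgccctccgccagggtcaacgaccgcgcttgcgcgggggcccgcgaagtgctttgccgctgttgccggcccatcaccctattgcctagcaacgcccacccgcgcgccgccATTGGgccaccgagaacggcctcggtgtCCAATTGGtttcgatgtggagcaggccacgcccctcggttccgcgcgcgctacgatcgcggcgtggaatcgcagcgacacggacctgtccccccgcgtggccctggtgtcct
With the annotated start at 0 and the bases before it negative, the Lpin2 window held an E-box beginning at -9, and 7.15% of the 32851 promoter windows in the table held that motif. The Thrsp window held CCAAT at -79 on the opposite strand and at -52 on its own strand. The Fasn window held CCAAT at -90 and -59 on the opposite strand and at -62 on its own, the matches at -62 and -59 sharing bases. CCAAT was present in 37.4% of all windows. None of the searched motifs was found in the Lpin1 window, which lies inside the annotated span of the gene (chr12:16535669-16653903). For the other motifs the shares of all windows were 2.32% for the D-box, 1.24% for the sterol regulatory element, 1.79% for the cAMP response element, 13.6% for TATAAA, 0.0578% for the glucocorticoid response element and 0.0152% for the LXR element. These matches describe letters in the windows only.

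All 7 genes were strongly expressed, with mean levels at the 98.8 (Lpin2) to 99.8 (Thrsp) percentile of the 13392 genes with a row, although probe sets of different genes cannot be compared exactly. Genes without a row, among them most of the hepatocyte markers below, are not in this ranking. Array medians lay between 2.83 and 3.09. The arrays of nintedanib mice 89 and 91 stood apart, with a median r of 0.950 and 0.948 against the rest, and some pooled differences are also given without them. The labels give no batch, but the title numbers of model mice fall in runs. Earlier results of these data had shown these runs to differ in clock genes: 6 vehicle mice (76 to 81) and nintedanib mouse 82 in one, 9 nintedanib mice (83 to 91) and 3 vehicle mice (92 to 94) in the other. Treatment and run therefore coincide for all but 4 model mice, and comparisons are given both pooled and within mice 83 to 94. Those within mice 83 to 94, and those with the run as a block, were not repeated without arrays 89 and 91. Of 12 hepatocyte markers only Tat had a row, at 10.35 to 11.22 in nintedanib, 10.24 to 10.94 in vehicle and 10.31 to 10.92 in control livers. Tat is itself induced by glucocorticoids and is also counted in the fasting and glucocorticoid list below, so it is not independent of that list, and its nintedanib minus vehicle difference was 0.28 ± 0.12 (limma adjusted p = 0.372). Of 7 adipocyte markers, 6 were measured. Their mean level spanned 3.08 to 3.61 in nintedanib, 3.16 to 3.55 in vehicle and 3.23 to 3.54 in control livers. The defining marker Adipoq lay at 2.03 to 2.52 in nintedanib, 2.03 to 2.98 in vehicle and 2.38 to 2.49 in control livers, in the range of the array medians or lower.

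Lpin1 was higher in nintedanib livers than in vehicle livers, and vehicle livers of mice 92 to 94 lay between. In nintedanib mice its level ran from 9.00 through a median of 9.72 to 10.33, against a lowest, median and highest level of 7.35, 8.17 and 9.01 in vehicle mice and levels of 8.08, 7.95 and 7.87 in controls. The nintedanib and vehicle ranges touched at 1 point: nintedanib mouse 90, at 9.00, lay just under vehicle mouse 92, at 9.01, and every other nintedanib mouse lay above every vehicle mouse. Group means were 9.65 ± 0.49 (SD, n = 10) in nintedanib, 8.17 ± 0.45 (SD, n = 9) in vehicle and 7.97 ± 0.11 (SD, n = 3) in control mice. The difference of nintedanib minus vehicle was 1.49 ± 0.19 (SE), or 2.80-fold, and that of nintedanib minus control was 1.68 ± 0.27. In bulk liver, more cells of a type and more RNA per cell cannot be told apart. The mean of 5 endothelial markers lay at 4.97 to 5.40 in nintedanib livers against 5.34 to 5.83 in vehicle livers, and all 5 had negative differences (-0.50 to -0.22), of which limma called 0 (3 with an unadjusted p under 0.05). The mean of 6 macrophage markers lay at 6.06 to 6.98 in nintedanib livers against 6.21 to 7.51 in vehicle livers, with a median difference of -0.31 and 0 called by limma (1 with an unadjusted p under 0.05). The part of these cells in the Lpin1 and Lpin2 differences was not tested.

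Lpin1 levels also lay apart between the runs of vehicle mice. Vehicle mice 92 to 94 had Lpin1 levels of 9.01, 8.46 and 8.38, against 7.35 to 8.22 (median 8.04) in vehicle mice 76 to 81, with no overlap. That run difference within the vehicle group was 0.67 ± 0.25 and did not pass the test (limma adjusted p = 0.334). Nintedanib mouse 82, the only treated mouse among 76 to 82, had 9.05, above all 6 vehicle mice of its run. Within mice 83 to 94 the nintedanib minus vehicle difference was 1.11 ± 0.23, or 2.15-fold, and with the run as a block term it was 1.11 ± 0.20. Vehicle mice did not pass a difference from controls in either run, at 0.64 ± 0.29 for mice 92 to 94 (adjusted p = 0.309) and -0.03 ± 0.25 for mice 76 to 81 (adjusted p = 0.987).

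Lpin2 was highest in nintedanib livers, intermediate in vehicle livers and lowest in controls. Its levels were 8.50, 8.95 and 9.28 (lowest, median, highest) in nintedanib mice, 8.16, 8.51 and 8.72 in vehicle mice, and 7.86, 7.86 and 8.13 in controls. Every vehicle and every nintedanib mouse lay above every control, while nintedanib and vehicle overlapped only through mouse 82 at 8.50. The nintedanib minus vehicle difference was 0.52 ± 0.10, or 1.43-fold (limma adjusted p = 0.0145). It passed without arrays 89 and 91 too (0.52 ± 0.11, adjusted p = 0.0367). Within mice 83 to 94 all 9 nintedanib mice, from 8.80 up, lay above the vehicle values of 8.56, 8.69 and 8.67, but the difference was 0.36 ± 0.13 there (adjusted p = 0.701) and 0.31 ± 0.11 with the run as a block (adjusted p = 0.690), neither of which passed. Against controls, Lpin2 rose 2.01-fold in nintedanib mice (adjusted p = 9.4e-05) and by 0.69 ± 0.16 in vehicle mice 92 to 94 (adjusted p = 0.0115). The differences of all vehicle mice (0.49 ± 0.15, adjusted p = 0.0845) and of vehicle mice 76 to 81 (0.38 ± 0.13, adjusted p = 0.158) from controls did not pass. The remaining lipin gene, Lpin3, lay near the array medians in all groups, at 3.22 ± 0.28 (SD, n = 10) in nintedanib, 3.22 ± 0.15 (SD, n = 9) in vehicle and 2.99 ± 0.14 (SD, n = 3) in control livers.

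**Figure D1:**
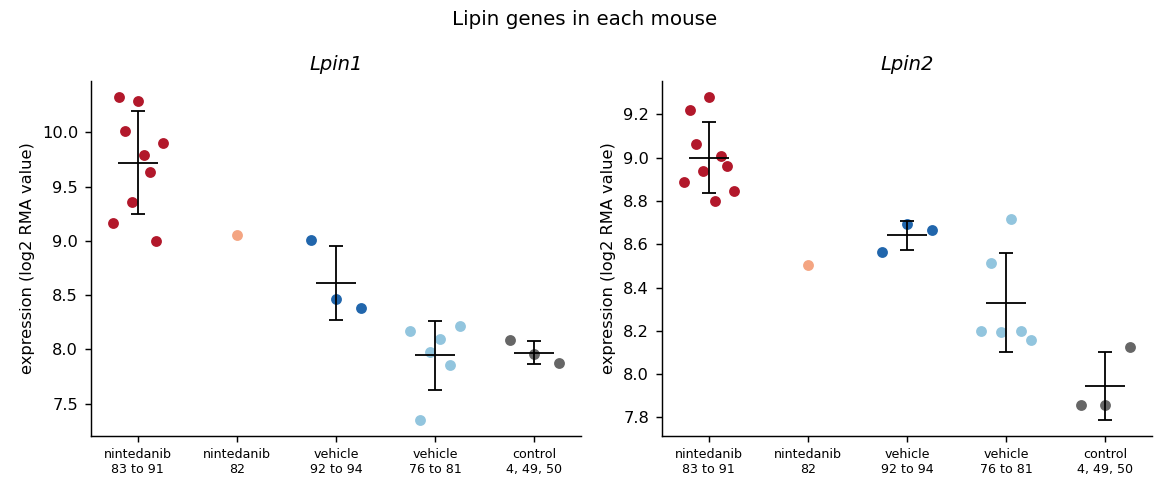
Log2 RMA level of Lpin1 and Lpin2 (y axes, separate scales) in each mouse, 1 point per mouse, grouped by treatment and title number along the x axis, with the mean and SD as a bar for groups of more than 1. Lpin1 reaches 10.33 in nintedanib mice 83 to 91 and at most 9.01 in vehicle mice, and for Lpin2 all 9 nintedanib mice of that run lie above the vehicle mice 92 to 94.

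Among the regulators, Srebf1 and Thrsp differed between the runs of vehicle mice and did not pass a test between nintedanib and vehicle. Srebf1 had levels of 10.08, 10.01 and 9.74 in vehicle mice 92 to 94, against 8.78 to 9.08 (median 8.90) in vehicle mice 76 to 81. These values did not overlap, and Srebf1 was 1.03 ± 0.25 higher in mice 92 to 94, or 2.04-fold (limma adjusted p = 0.0420). Thrsp had levels of 11.05, 10.87 and 10.89 in vehicle mice 92 to 94, against 9.21 to 9.76 (median 9.42) in vehicle mice 76 to 81. It too was without overlap, and rose by 1.48 ± 0.30, or 2.78-fold (adjusted p = 0.0110). Both calls were lost when any 1 of vehicle mice 92, 93 and 94 was left out, and that of Srebf1 held in 12 of the 22 fits that left out 1 mouse. The same 3 mice were also shifted in clock genes: of 18 measured members of a 19-gene clock list, 8 were higher and 4 lower, where 1.11% of all genes were called. Clock genes were known beforehand to differ between these runs, so this count is a description. The part of the clock shift in the Srebf1 and Thrsp differences was not tested. Of the 6 adipocyte markers limma called 0 between these runs (0 with an unadjusted p under 0.05) and 0 between nintedanib and vehicle (0 likewise), and the largest run difference was that of Adrb3 (0.36 ± 0.18, adjusted p = 0.630).

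Pooled over runs, Srebf1 in nintedanib mice had a lowest, median and highest level of 9.12, 9.65 and 10.61, against 8.78, 8.99 and 10.08 in vehicle mice and levels of 9.24, 9.98 and 10.10 in controls. Thrsp in nintedanib mice had 9.59, 10.62 and 11.88, against 9.21, 9.64 and 11.05 in vehicle mice and 10.61, 11.06 and 10.98 in controls. All 3 groups overlapped for both genes. The nintedanib minus vehicle differences were 0.45 ± 0.21 for Srebf1 (adjusted p = 0.442, and 0.27 ± 0.20 without arrays 89 and 91) and 0.80 ± 0.27 for Thrsp (adjusted p = 0.209). Within mice 83 to 94 both had the opposite sign, at -0.19 ± 0.24 for Srebf1 (adjusted p = 0.935) and -0.17 ± 0.29 for Thrsp (adjusted p = 0.954). Nintedanib mouse 82 had 9.32 for Srebf1 and 10.60 for Thrsp, each above all 6 vehicle mice of its own run, as a single animal with no replicate. In vehicle mice 76 to 81 Thrsp fell below all 3 controls, by 1.43 ± 0.30 (adjusted p = 0.0108). Srebf1 lay below all controls in those mice as well, at -0.86 ± 0.25, without passing the test (adjusted p = 0.0740).

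Elovl6, the elongase that turns palmitate into stearate, was higher in nintedanib livers than in healthy controls. Its levels were 8.99, 9.55 and 10.17 (lowest, median, highest) in nintedanib mice, 8.53, 9.13 and 9.49 in vehicle mice, and 8.37, 8.65 and 8.35 in controls. All 10 nintedanib mice lay above all controls, and Elovl6 rose by 1.15 ± 0.22 there, or 2.22-fold (limma adjusted p = 0.0020). Without arrays 89 and 91 Elovl6 rose by 1.03 over controls and passed too. In vehicle mice 92 to 94, with 9.36, 9.49 and 9.38, it rose by 0.95 ± 0.24 over controls (adjusted p = 0.0288), while vehicle mice 76 to 81 overlapped the controls (0.40 ± 0.21, adjusted p = 0.435). The nintedanib minus vehicle difference, 0.57 ± 0.16, did not pass (adjusted p = 0.0857), and it was 0.15 ± 0.20 within mice 83 to 94 (adjusted p = 0.937). Nintedanib mouse 82 stood at 10.09, above the 9.18 of the highest vehicle mouse of its run.

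Fasn and Me1 overlapped between all groups. Fasn, the fatty acid synthase itself, had 8.89, 9.63 and 10.52 (lowest, median, highest) in nintedanib mice, 9.29, 9.77 and 10.14 in vehicle mice, and 9.47, 10.55 and 9.65 in controls. Its nintedanib minus vehicle difference was -0.07 ± 0.19 (adjusted p = 0.946) and within mice 83 to 94 it was -0.34 ± 0.25 (adjusted p = 0.894). Its spread was wide among the nintedanib mice, 0.55 SD over 10 mice against 0.26 over 9 vehicle mice, with mouse 82 (10.52) and mouse 83 (10.48) at the top and mouse 87 (8.89) at the bottom. Me1, the cytosolic malic enzyme, had 9.03, 9.50 and 9.83 in nintedanib mice, 9.25, 9.59 and 9.91 in vehicle mice, and 9.12, 9.85 and 9.75 in controls. Its differences were -0.12 ± 0.12 for nintedanib minus vehicle (adjusted p = 0.801) and 0.00 ± 0.17 for vehicle minus control (adjusted p = 0.999). A p that misses the threshold does not show that these levels were equal.

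**Figure D2:**
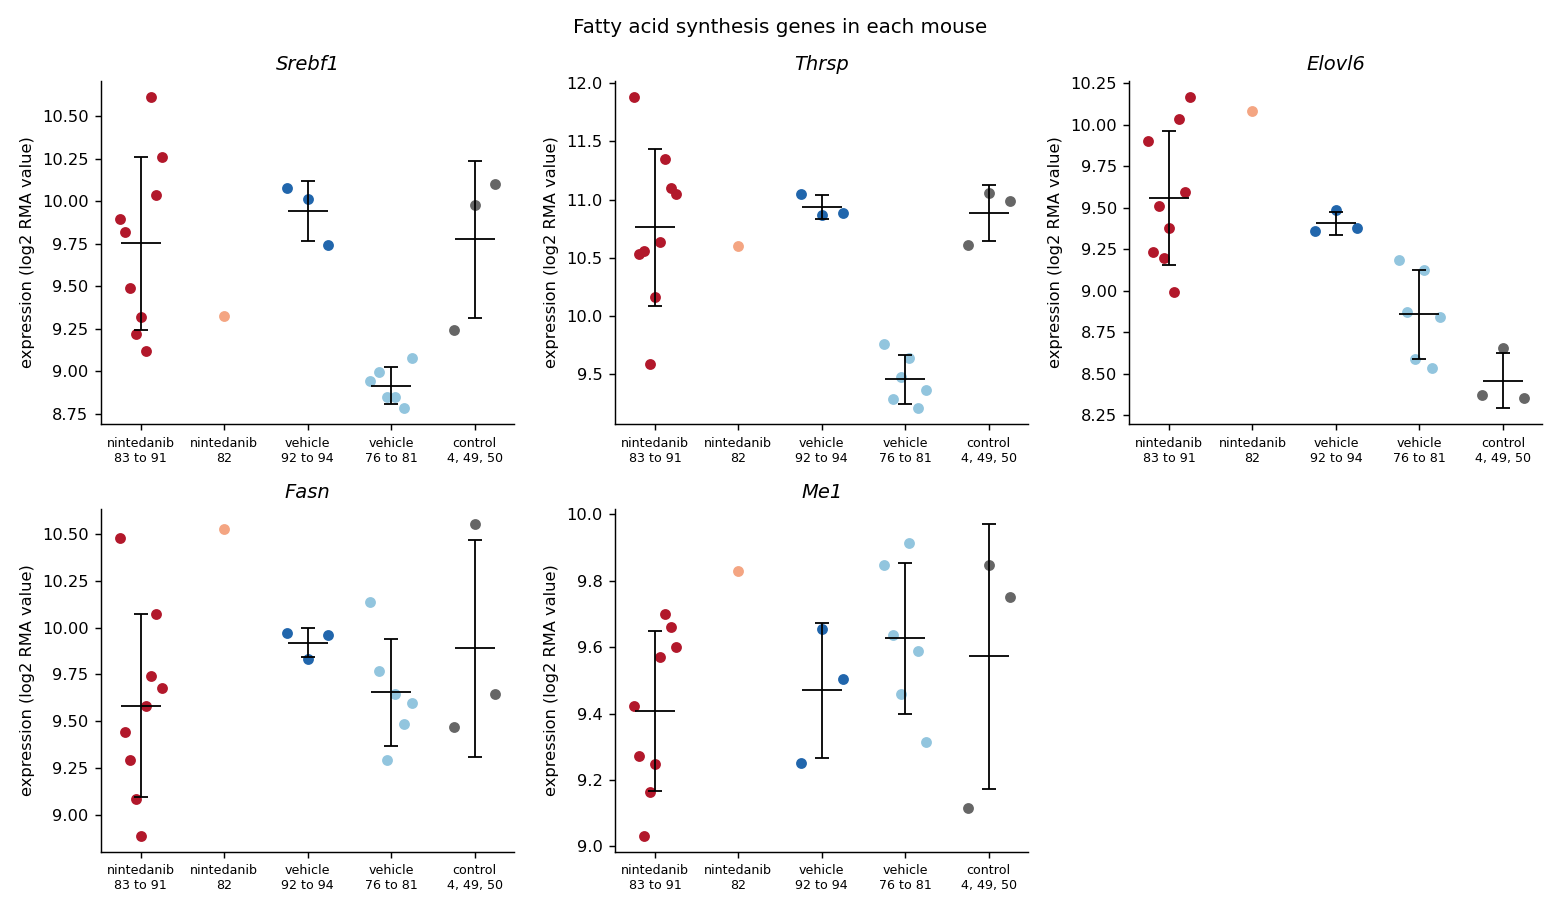
Log2 RMA level of Srebf1, Thrsp, Elovl6, Fasn and Me1 (y axes, separate scales) in each mouse, 1 point per mouse, grouped by treatment and title number along the x axis, with the mean and SD as a bar for groups of more than 1. Srebf1 and Thrsp are lowest in vehicle mice 76 to 81 (at most 9.08 and 9.76) and overlap between nintedanib mice 83 to 91 and vehicle mice 92 to 94, Elovl6 is lowest in controls, and Fasn and Me1 overlap throughout.

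Because Lpin1 was chosen on nintedanib arrays, calls in comparisons of nintedanib mice are counted over the other 6 genes. Between nintedanib and vehicle limma called 1 of the 6, Lpin2, where 0.687% of all genes were called. With the run as a block limma called 0 of the 6, with Lpin2 and Elovl6 under an unadjusted p of 0.05, against 0.0373% of all genes called. Within mice 83 to 94 limma called 0 of the 6, with Lpin2 under an unadjusted p of 0.05, where 0.0299% of all genes were called. None of the 6 had every nintedanib value above every vehicle value, a pattern shown by 0.0523% of all genes.

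Between vehicle and control limma called 0 of the 7 genes, against 2.52% of all genes, and 3 of them (Lpin2, Elovl6 and Thrsp) had an unadjusted p under 0.05. Lpin2 alone lay higher in every vehicle mouse than in every control, as did 2.49% of all genes. Split by run, 1 of 7 passed in vehicle mice 76 to 81 (Thrsp, lower) where 2.37% of all genes did, and 2 of 7 passed in vehicle mice 92 to 94 (Lpin2 and Elovl6, higher) where 3.41% did. Between nintedanib and control 2 of the 6 genes other than Lpin1 were called (Lpin2 and Elovl6), against 5.85% of all genes, and both lay above every control in every nintedanib mouse, as did 2.47% of all genes. Both comparisons share the 3 control arrays. Vehicle mice 92 to 94 and most nintedanib mice also differed from controls in clock genes (below), and the part of this was not tested. Between the runs of vehicle mice, 2 of 7 passed (Srebf1 and Thrsp) where 1.11% of all genes did, and 4 of 7 (Lpin1, Srebf1, Elovl6 and Thrsp) lay higher in each of mice 92 to 94 than in each of mice 76 to 81, as did 3.16% of all genes.

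**Figure D3:**
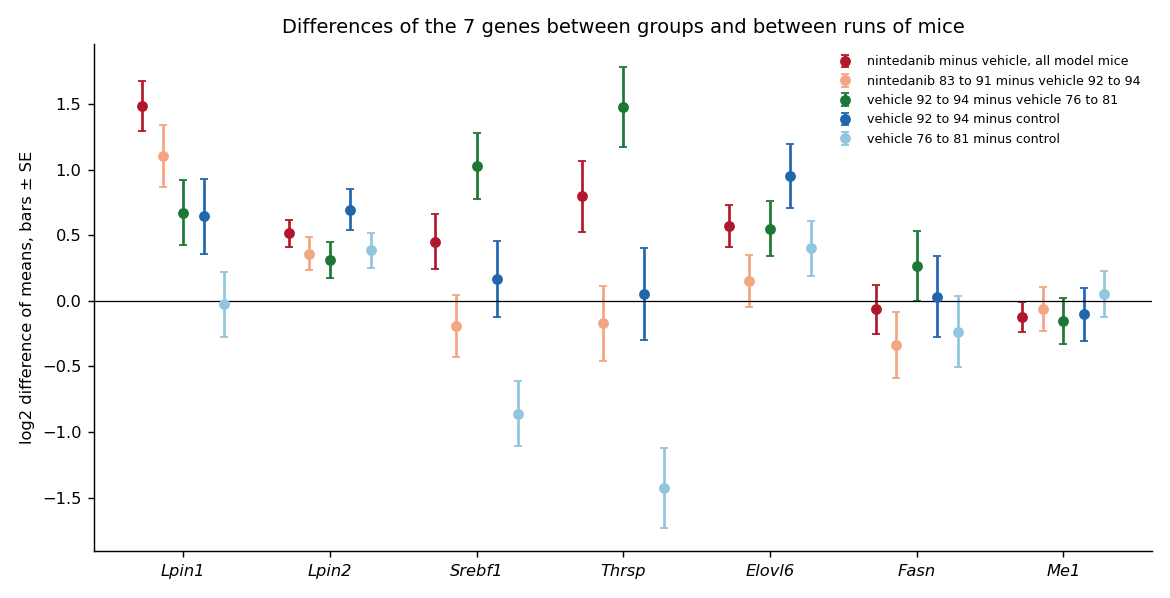
Log2 difference of means (y axis) with its limma SE as the bar for each of the 7 genes (x axis) in 5 comparisons, coloured by comparison. Lpin1 keeps a difference of 1.11 within mice 83 to 94, where Srebf1 and Thrsp lie at -0.19 and -0.17, and Srebf1 and Thrsp have their largest positive values, 1.03 and 1.48, between the runs of vehicle mice.

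Beyond the group means, the lipogenic genes moved together from mouse to mouse and the lipins did not move with them. Over 21 arrays, after the mean of each treatment and run was taken off (mouse 82 left out, being alone in its cell), the 10 pairs among Fasn, Srebf1, Elovl6, Me1 and Thrsp had correlations from 0.48 (Elovl6 with Me1) to 0.80 (Fasn with Thrsp). Srebf1 correlated with Elovl6 at 0.71. Lpin1 had correlations of -0.44 with Fasn, -0.33 with Me1, -0.24 with Thrsp, -0.16 with Srebf1, -0.13 with Elovl6 and 0.16 with Lpin2. Over all 22 arrays without that step, Lpin1 and Lpin2 correlated at 0.82, so most of their likeness lay between groups and runs. Arrays share their normalisation, and these correlations are descriptions with no test. No correlation given here was repeated without arrays 89 and 91, which stood apart from the rest. Mice 89 and 91 had the highest Srebf1 levels of the series (10.61 and 10.26) and high Elovl6 levels (10.03 and 10.17). Their part in the correlations among the lipogenic genes was not tested.

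Within the 9 nintedanib mice 83 to 91, Lpin1 was compared with the 6 other genes by Pearson and Spearman correlation with exact 2-sided permutation tests. The most negative relation was with Fasn, at r = -0.67 (exact permutation p = 0.0487, adjusted p = 0.238 over 6 relations) and rho = -0.65 (exact permutation p = 0.0666, adjusted p = 0.295). Without mice 83 and 90, those farthest from the Lpin1 median, r was -0.20, so the relation rests on these mice. With Lpin2, r was 0.62 (exact permutation p = 0.0794, adjusted p = 0.238) and rho 0.53 (exact permutation p = 0.148, adjusted p = 0.295), and r was 0.69 without the same mice. The other 4 relations had adjusted exact permutation p values for r of 0.467 to 0.583, and none of the 6 passed after adjustment.

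**Figure D4:**
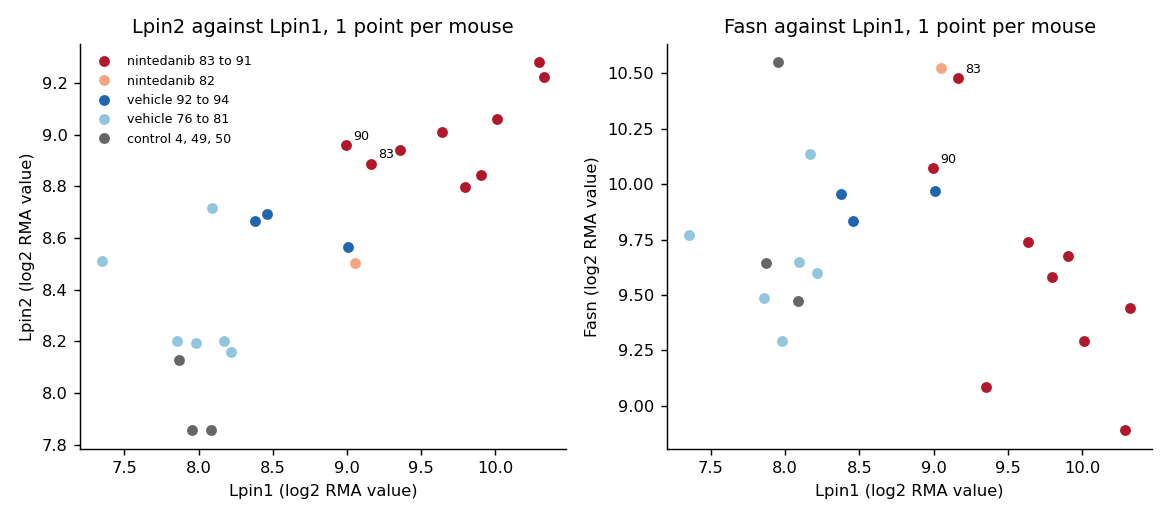
Log2 RMA level of Lpin2 (left) and Fasn (right) on the y axes against Lpin1 on the x axes, 1 point per mouse for all 22 mice, coloured by treatment and title number, with mice 83 and 90 marked. Both lipin genes reach their highest values in nintedanib mice 83 to 91 (r = 0.82 over 22 arrays, and 0.16 over 21 arrays once group and run means are taken off). Lpin1 averages 7.94 in vehicle mice 76 to 81, beside 7.97 in controls. Fasn in nintedanib mice 83 to 91 is lower where Lpin1 is higher (r = -0.67, and -0.20 without mice 83 and 90).

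The genes whose pattern was most like Lpin1 over all 22 arrays were Klf13 (r = 0.90), Nampt (0.86), Slc7a2 (0.85), Pfkfb3 (0.85) and Alas1 (0.85). On the residuals of 21 arrays they were Serpina3c (0.80), Arhgef26 (0.75), Arid5b (0.74), Odam (0.73) and Chac1 (0.72). No gene stood in both lists. For Lpin2 the nearest over all arrays were St3gal5 (0.93), Gne (0.92) and Nhlrc2 (0.92), and on residuals Nlrp4f (0.83), Tex14 (0.81) and Slc25a31 (0.79). Several genes nearest to the lipogenic members were themselves lipid genes: Acacb, the mitochondrial acetyl-CoA carboxylase, was the nearest gene to Thrsp (0.89) and among the 3 nearest to Fasn (0.80) on residuals, and Fasn over all arrays was nearest to Slc23a1 (0.79), Acss2 (0.78) and Gpam (0.78). Thrsp over all arrays was nearest to Aacs (0.86), Srebf1 (0.86) and Slc46a3 (0.82), and Srebf1 to Vegfa (0.90), Thrsp (0.86) and Abcg5 (0.83). On residuals the nearest gene was Prss8 for Fasn (0.87), Ankrd33b for Srebf1 (0.85), Haao for Elovl6 (0.82) and Ctsj for Me1 (0.85). Over all arrays it was Avpi1 for Elovl6 (0.86), with Mt2 next (0.83), and Dusp6 for Me1 (0.80). Each is among the highest of the correlations with all named genes and carries no test. The search set no lower limit on expression, so dim genes could enter, and whether these genes are expressed in liver was not examined.

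Other fatty acid synthesis and elongation genes were mostly not called between treatments. Of 13 measured among 25 listed, limma called 0 higher and 1 lower in nintedanib than in vehicle mice, where 0.687% of all genes were called. The median difference was 0.01 beside 0.01 over all genes. The gene that fell was Elovl3, an elongase of very long fatty acids under circadian and sex hormone control in mouse liver, whose mean level was 6.63 in nintedanib, 9.38 in vehicle and 11.45 in control mice (nintedanib minus vehicle -2.75 ± 0.53, adjusted p = 0.0112). It was lower in vehicle mice 92 to 94 than in vehicle mice 76 to 81 as well, by -3.08 ± 0.52 (adjusted p = 0.0013), and with the run as a block the nintedanib difference was -1.34 ± 0.46 (adjusted p = 0.662). Aacs, which activates acetoacetate for lipid synthesis, went the other way between the runs, at 7.67 in vehicle mice 92 to 94 against 5.91 in vehicle mice 76 to 81 (1.75 ± 0.27, adjusted p = 0.00038). Within mice 83 to 94 limma called 0 of the 13 (3 with an unadjusted p under 0.05), and the list had a median of -0.37, beside 0.03 over all genes, with Scd2 at -0.74 ± 0.32 (adjusted p = 0.798), Acss2 at -0.57 ± 0.27 and Acsl4 at -0.37 ± 0.17 (adjusted p = 0.804 for both).

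Glycolytic and NADPH supply genes gave 6 measured of 22, with 0 called by limma between nintedanib and vehicle (1 with an unadjusted p under 0.05) and a median of 0.01. Pfkfb1, the liver bifunctional enzyme that sets fructose bisphosphate levels, was lower in nintedanib than in control mice (-0.99 ± 0.26, adjusted p = 0.0208). Regulators of lipogenesis gave 13 of 25, with 0 called by limma between nintedanib and vehicle (5 with an unadjusted p under 0.05) and a median of 0.06. Between the runs 2 of them passed, where 1.11% of all genes did. Insig2, which holds SREBP precursors in the endoplasmic reticulum, averaged 8.61 in vehicle mice 92 to 94 against 9.99 in vehicle mice 76 to 81 (-1.38 ± 0.18, adjusted p = 6.8e-05). Ppargc1b, a coactivator of SREBP1, averaged 6.40 in vehicle mice 92 to 94 against 5.26 in vehicle mice 76 to 81 (1.14 ± 0.17, adjusted p = 0.00026). Nintedanib mice 83 to 91 averaged 8.62 for Insig2 and 6.18 for Ppargc1b, near vehicle mice 92 to 94.

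Triglyceride and phospholipid synthesis genes, the pathway in which lipins act, gave 14 measured of 27, with 0 called by limma between nintedanib and vehicle (1 with an unadjusted p under 0.05, median 0.05). Limma called 1 of them (Chka, below) between the runs of vehicle mice, where 1.11% of all genes were called. Between vehicle and control mice it called 2 higher and 2 lower in vehicle mice, where 2.52% of all genes were called. Plpp2, a plasma membrane lipid phosphatase (0.65 ± 0.13, adjusted p = 0.0061), and Gpat3, a glycerol phosphate acyltransferase (1.08 ± 0.27, adjusted p = 0.0263), rose, while Mogat1, a monoacylglycerol acyltransferase (-0.92 ± 0.21, adjusted p = 0.0129), and Chpt1, which makes phosphatidylcholine (-0.47 ± 0.12, adjusted p = 0.0293), fell. The median over the list was -0.01, beside -0.02 over all genes. Chka, the choline kinase, averaged 4.65 in vehicle mice 92 to 94 against 6.40 in vehicle mice 76 to 81 (-1.75 ± 0.19, adjusted p = 5e-06), and 4.93 in nintedanib mice against 6.98 in controls (-2.04 ± 0.42, adjusted p = 0.0032). Of the lipid droplet, lipolysis and export genes, 14 were measured of 21 and limma called 0 between nintedanib and vehicle (1 with an unadjusted p under 0.05, median 0.02). Fitm1, a lipid droplet assembly gene, averaged 3.96 in nintedanib and 4.15 in vehicle mice against 7.70 in controls, and fell by 3.54 ± 0.30 in vehicle mice (adjusted p = 5.9e-08). Some markers of other liver cells differed in that contrast as well: limma called 1 of 6 macrophage, 1 of 5 stellate cell, 2 of 5 endothelial and 0 of 5 cholangiocyte markers, all higher in vehicle than in control mice, and 2 cholangiocyte markers had an unadjusted p under 0.05. The mean of the 6 macrophage markers spanned 6.21 to 7.51 in vehicle livers against 5.57 to 5.96 in controls, that of the 5 stellate cell markers 4.44 to 4.86 in vehicle livers against 3.75 to 4.03 in controls, and that of the 5 endothelial markers 5.34 to 5.83 in vehicle livers against 4.88 to 5.28 in controls. That of the 5 cholangiocyte markers, at 4.23 to 4.93 in vehicle livers, overlapped the 4.23 to 4.46 of controls. Their part in the differences of the lipid genes was not tested.

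More genes were called between treatments in the list of genes induced by fasting and glucocorticoids, a regulation Lpin1 is known to share, although Lpin1 was not counted in it. Of 17 measured among 21 listed, 7 were higher and 1 lower in nintedanib than in vehicle mice, where 0.687% of all genes were called, with a median of 0.28 beside 0.01 over all genes. With the run as a block 4 were higher and 0 lower (median 0.39), where 0.0373% of all genes were called. Within mice 83 to 94 2 were higher and 0 lower (median 0.38), where 0.0299% of all genes were called. The metallothionein gene Mt2 averaged 9.36 in nintedanib, 6.47 in vehicle and 4.61 in control mice, and was higher by 2.27 ± 0.41 within mice 83 to 94. Cebpb, an acute phase and gluconeogenic transcription factor gene, averaged 9.98 in nintedanib, 9.31 in vehicle and 9.33 in control mice, and was higher by 0.77 ± 0.12 within mice 83 to 94. The gene that fell was Fgf21, a hepatokine induced by fasting, which averaged 3.51 in nintedanib and 5.07 in vehicle mice (nintedanib minus vehicle -1.56 ± 0.37, adjusted p = 0.0438). Pdk4, a kinase that restrains pyruvate oxidation in fasting, averaged 5.22 in nintedanib, 6.07 in vehicle and 5.79 in control mice and did not pass (-0.85 ± 0.33, adjusted p = 0.315). By run, Pdk4 averaged 5.09 in nintedanib mice 83 to 91, 5.05 in vehicle mice 92 to 94 and 6.58 in vehicle mice 76 to 81. Mt2 and Cebpb also respond to metals or inflammation. Pooled over runs, members of the list differed in opposite directions, while limma called none lower within mice 83 to 94. This list and its leading genes were known to differ when the lists were drawn up. Its counts and p values are therefore a description, and Mt2 and Cebpb are given with no p.

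The clock list had 18 of 19 genes measured, 2 of them (Per1 and Hlf) higher in nintedanib than in vehicle mice, where 0.687% of all genes were called. Per1 is also counted in the fasting and glucocorticoid list, so the lists are not separate in this gene. Limma called 0 of the 18 with the run as a block (3 with an unadjusted p under 0.05) and 0 within mice 83 to 94 (2). Between the runs of vehicle mice its median was 0.50, beside -0.02 over all genes, which is a description because that shift was already known. Dbp, a clock output factor that binds the D-box, averaged 9.18 in vehicle mice 92 to 94 against 5.41 in vehicle mice 76 to 81, and nintedanib mice 83 to 91 and mouse 82 averaged 9.08 and 6.19. Controls averaged 5.59. Against controls, limma called 8 clock genes higher and 4 lower in vehicle mice 92 to 94 (3.41% of all genes called). In nintedanib mice 83 to 91 it called 9 higher and 4 lower (914 of 13392 genes called). In vehicle mice 76 to 81 it called 0 higher and 1 lower (2.37%). The part of this shift in the differences of mice 83 to 94 from controls was not tested.

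**Figure D5:**
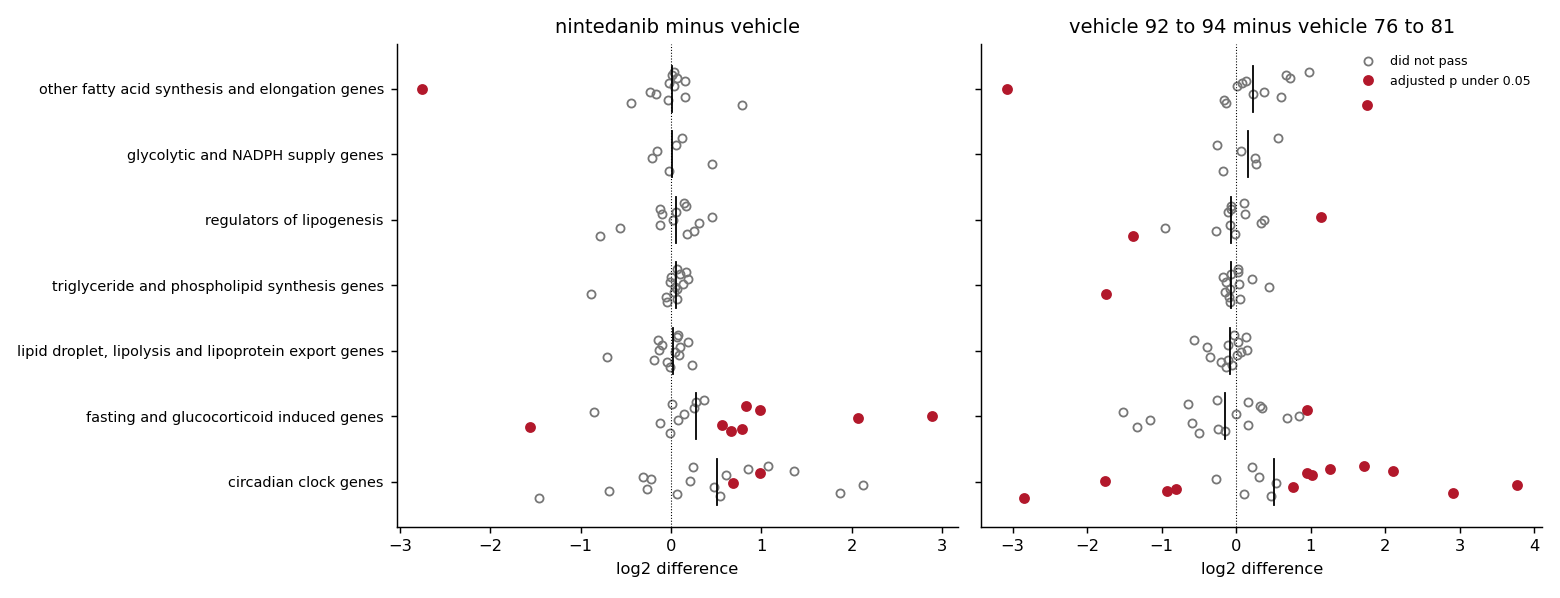
Log2 difference of each measured gene (x axes, 1 circle per gene) in 7 gene lists (rows), for nintedanib minus vehicle on the left and vehicle mice 92 to 94 minus vehicle mice 76 to 81 on the right. Filled red circles passed an adjusted p under 0.05, open circles did not, and the vertical bar is the list's median, which is 0.28 for the fasting and glucocorticoid list on the left and 0.50 for the clock list on the right.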

How the data were processed

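The authors deposited 1 log2 value per gene and array, made by RMA on custom probe sets defined by Entrez gene, per the series' design text. Software versions are not given in the sources used here. RMA normalizes quantiles, so a shift of all genes together would not show, and it compresses differences of dim genes. The RefSeq table of GRCm38.p6 gave symbols for 13242 of 13392 genes through their Entrez IDs.

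Groups were taken from the labels. All 22 arrays were fitted as 3 group means (19 residual degrees of freedom), or as 5 means of group and run (17), with limma 3.58.1 in R 4.3.3 (lmFit, eBayes), with p-values adjusted by Benjamini-Hochberg over all 13392 genes and a threshold of 0.05, 2-sided. Every adjusted p of a gene difference in the text is limma's. Exact permutation tests counted over every ordering of the mice, with the ranks and the adjustment over relations from scipy 1.17.1. The fit was tested on simulated data.

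Members, lists and runs were chosen with earlier results of these data known. Every measured member is named, with up to 4 genes of smallest p per list and comparison and the 5 (Lpin1) or 3 (others) most correlated genes, clone names left out, and not all of these are printed. Alternatives were leaving out the dimmest 25% of genes, array centring, repeated quantile normalization, trend and robust variance, fits of the compared groups only, leaving out arrays 89 and 91, the runs, and leaving out each mouse.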

Additional observations from a re-analysis of the deposited data

Results flagged for a closer look

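Srebf1 and Thrsp were picked out because the vehicle minus control difference was not the same in vehicle mice 92 to 94 and in vehicle mice 76 to 81, by a test of the difference itself. For Srebf1 the runs differed by 1.03 ± 0.25 (limma adjusted p = 0.0420), with vehicle minus control at 0.17 in mice 92 to 94 and -0.86 in mice 76 to 81. For Thrsp they differed by 1.48 ± 0.30 (limma adjusted p = 0.0110), with vehicle minus control at 0.051 in mice 92 to 94 and -1.43 in mice 76 to 81. Both were higher in 3 of 3 vehicle mice 92 to 94 than in all 6 vehicle mice 76 to 81. No mouse stood apart from its group in any of the 28 sets of 4 to 10 mice examined for outlying values, where chance alone marks about 1 in 20.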

How the results depend on the processing

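No paired analysis was possible because the groups share no replicate numbers. Outside the settings that leave out 1 mouse, 187 member differences were counted as the same, 4 became called, 2 lost their call and 10 changed sign. The same meant an unchanged direction and side of the threshold. Lpin1 in the 2 comparisons of nintedanib mice was not judged by the threshold. There the same meant an unchanged direction and a shift smaller than its largest group SD. For nintedanib minus vehicle, Lpin1, chosen on this contrast, is left out of the member counts. Limma called 1 (Lpin2) of the other 6 members, and 92 genes. It called 0 of the 6 and 5 genes under the run block, and 0 of the 6 and 4 genes within mice 83 to 94. Without arrays 89 and 91 it called 60 genes. Leaving out 1 mouse gave 49 (without vehicle mouse 76) to 230 genes (without nintedanib mouse 82), with 56 to 59 without vehicle mouse 77, 78, 79 or 81 or nintedanib mouse 84, and 155 and 184 without vehicle mice 93 and 94. Sign changes were Srebf1 at -0.026 (block) and -0.19 (within), Me1 at 0.011 (block), Thrsp at -0.17 (within), and Fasn, -0.16 to 0.023 over left-out mice.

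For vehicle minus control, 0 members were called, against 1 after repeated quantile normalization (Lpin2, adjusted p = 0.0342), 1 in mice 76 to 81 and 2 in mice 92 to 94. The 338 genes became 146 (without control 50) to 418, and 158 without control 4. Lpin1 was -0.026 in mice 76 to 81, and in mice 92 to 94 Fasn was 0.031, Srebf1 0.17, Me1 -0.10 and Thrsp 0.051. Over left-out mice Fasn ran from -0.35 to 0.18 and Me1 from -0.23 to 0.14.

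For nintedanib minus control, 784 genes became 379 (without control 4 or control 50) to 852, and Srebf1 was 0.092 after repeated quantile normalization. Over left-out mice Fasn ran from -0.42 to 0.12, Srebf1 from -0.33 to 0.10 and Me1 from -0.35 to 0.016. Between the runs of vehicle mice, 2 members became 0 to 2 and 148 genes 77 (without vehicle mouse 93; 85 without 94) to 175. The Srebf1 call held in 12 of 22 such fits (adjusted p 0.0130 to 0.229) and the Thrsp call in 19 (0.0015 to 0.0705). Both were lost without vehicle mouse 92, 93 or 94, and Srebf1 alone without any of vehicle mice 76 to 81 or nintedanib mouse 84. The cause of these changes was not tested, beyond the smaller number of mice in each such fit. The number of arrays, above all 3 controls and 3 vehicle mice 92 to 94, limits the precision.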
